A study of Mus musculus with 8 samples.

Results

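The genes described here are the abundant RIKEN genes of mouse spermatids: those whose symbol ends in Rik and whose mean over all 8 libraries was a normalised read count of at least 1000. The table held 16349 genes, of which 1316 carried a RIKEN symbol, and 197 of these reached the minimum. The other 1119 RIKEN genes lay under it, and 2635 genes with other names also reached it. RNA was sequenced from elongating and round spermatids of C57BL/6 mice, each labelled either conditional knockout of Carm1 (cKO, here KO-labelled) or wild type (WT). The 4 groups, elongating KO-labelled, elongating WT, round KO-labelled and round WT, held 2 libraries each, and cells of each sample came from 8 testes and were separated by size and density through centrifugal elutriation. The sources used here do not give the promoter that drives the Cre recombinase or the age of the mice. Whether libraries 1 and 2 of a group came from separate mice is not stated, so every p-value covers the spread between libraries alone, which may be technical.

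Symbols ending in Rik are placeholders from the RIKEN mouse cDNA project, in which full-length transcripts were cloned from many tissues and named by plate and well until a function was assigned. Adult testis was among the tissues sampled most deeply, because haploid germ cells transcribe many genes that other tissues leave silent. Spermatids make most of these RNAs while the nucleus is still accessible, store part of them bound to protein, and translate them as the chromatin is packed with protamines and the tail is built. CARM1 methylates arginines of histones and other proteins and serves as a coactivator of transcription.

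The clone prefixes and the annotation describe the set. Of the 197 members, 168 carried 1 of the prefixes used for adult testis clones, led by 1700 with 105 members, while the next prefixes had 28 and 20. RefSeq (GRCm38.p6) matched 143 members by symbol and 54 by a synonym, and those 54 now bear another name, such as Spem2, H2bl1 and Cfap206. The word uncharacterised therefore fits part of the set only. RefSeq lists 145 members as protein-coding, 45 as long non-coding RNA (lncRNA) and 7 as pseudogenes of some kind. Their proteins were short: the median length was 254 residues over 151 members with a protein, against 472 over all genes tested and 520 over the other abundant genes. Proteins under 300 residues made up 59.6% of the members' proteins, against 26% over all genes tested and 22.5% over the other abundant genes. Over the same 151 members the median summed exon length was 1809 bases, against 4325.5 over the 14438 genes tested that have a protein.

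Among the promoter windows of the members, a few held the motifs of factors known for a role in spermatids, and 3 stretches are shown, those of the members with a full motif whose stretch holds no annotated exon. Their values are given below, as are those of 1110020A21Rik and C030037D09Rik, which hold TGACGTCA further from the start. RefSeq windows ran from 250 bases before to 50 bases after the annotated start and were found for 164 members. The motifs searched on both strands were TGACGTCA, the cyclic AMP response element bound by CREM, its shorter form TGACG, the full X-box bound by RFX factors, and its shorter form GTTGCC. TGACGTCA stood in 3.54% of member windows, against 1.79% of all windows of that length and 3.47% of those of the other abundant genes. TGACG stood in 22.2% of member windows, 20.8% of all windows, 28.2% of those of all genes tested and 32.1% of those of the other abundant genes. GTTGCC stood in 15.2% of member windows, 12.5% of all windows, 13.5% of those of all genes tested and 17.4% of those of the other abundant genes. Each full motif contains its shorter form. The full X-box stood in 2 member windows, 1.01%, against 0.07% of all windows. The stretches below run from base -100 to base -1 before the start on the plus strand of GRCm38.p6, with the motif in capitals; a match describes letters only.
1700010I14Rik, X-box, chr17:8988233-8988332: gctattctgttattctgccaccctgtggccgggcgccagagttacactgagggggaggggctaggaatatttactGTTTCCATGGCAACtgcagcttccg
4930412O13Rik, cyclic AMP response element, chr2:9881146-9881245: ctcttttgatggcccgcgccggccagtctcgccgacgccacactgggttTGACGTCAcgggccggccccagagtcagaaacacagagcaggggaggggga
4933417D19Rik, cyclic AMP response element, chr8:123234991-123235090: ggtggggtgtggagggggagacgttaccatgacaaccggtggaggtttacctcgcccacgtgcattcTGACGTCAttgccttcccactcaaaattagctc
The X-box match of 1700010I14Rik is on the minus strand. Of the 6 members with TGACGTCA in a window, 4 were called higher and 1 lower in elongating KO-labelled cells, where 120 and 22 of the 158 members with a window and no TGACGTCA were, and 27.3% and 27.7% of all genes tested. In round KO-labelled cells 2 were called higher and 2 lower, where 64 and 27 of the 158 were, and 19.4% and 12.6% of all genes tested.

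Libraries held between 17190962 and 23526694 reads, recovered from the deposited values. Carm1 itself went against its labels at 1 stage. In elongating spermatids its normalised read count was 8157 and 7993 in KO-labelled libraries, against 4308 and 4534 in WT libraries. In round spermatids it was 1174 and 1343 in KO-labelled libraries, against 1649 and 1686 in WT libraries. It was thus higher in the elongating cells labelled KO (log2 difference 0.87, limma adjusted p = 2.7e-09) and lower in the round cells labelled KO (-0.41, adjusted p = 3.8e-05). With libraries scaled to equal total counts these differences were 0.31 and -0.50. The labels do not say which part of the transcript the knockout removes. Where a KO-labelled group is said to be higher or lower, the direction rests on these labels.

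Markers of other cells and stages moved with the labels under the deposited scaling. Their sums and calls are given as deposited only, and with equal total counts they would shift. Over all genes the deposited values summed to 4.52e+07 and 4.44e+07 in elongating KO-labelled libraries, against 3.02e+07 and 3.04e+07 in elongating WT libraries. In elongating cells the summed level of 7 elongating spermatid markers, led by protamines, was 4684730 to 4812350 in KO-labelled and 2647940 to 2650840 in WT libraries, with 7 of 7 higher. The 7 round spermatid markers summed to 4758 to 4866 in elongating KO-labelled and 6571 to 6624 in elongating WT libraries, with 4 lower. In round cells these markers summed to 19989 to 20257 in KO-labelled and 18233 to 18301 in WT libraries, with 4 higher. The elongating spermatid markers summed to 148584 to 156595 in round KO-labelled and 133496 to 137012 in round WT libraries, with 6 higher. The 8 macrophage and leukocyte markers summed to 1802 to 1895 in elongating KO-labelled and 4342 to 4348 in elongating WT libraries, with 8 of 8 lower. The 10 spermatocyte markers summed to 8253 to 8292 in round KO-labelled and 9237 to 9429 in round WT libraries, with 5 lower and 1 higher. In elongating cells they summed to 1862 to 1891 in KO-labelled and 2528 to 2637 in WT libraries, with 7 lower and 2 higher. The 10 genes of dissociation stress also moved at both stages. They summed to 10465 to 10787 in elongating KO-labelled and 4701 to 4760 in elongating WT libraries, with 8 of 10 higher, and to 615 to 627 in round KO-labelled and 373 to 389 in round WT libraries, with 8 higher and 1 lower. The 6 peritubular and vascular markers summed to 3167 to 3268 in elongating KO-labelled and 1412 to 1471 in elongating WT libraries, with 4 higher and 2 lower. The summed level of the 10 Sertoli markers in the table was lower in KO-labelled cells at both stages. They summed to 4843 to 4903 in elongating KO-labelled and 6983 to 7000 in elongating WT libraries, with 7 lower, and to 184 to 192 in round KO-labelled and 328 to 333 in round WT libraries, with 6 lower. Between the stages the labels held: in WT cells 7 of 7 elongating spermatid markers were higher and 7 of 7 round spermatid markers lower in elongating libraries, beside 10 of 10 Sertoli and 8 of 8 macrophage markers that were also higher. Among these lists Fshr was at 0 in round KO-labelled and Atf3 at 0 in round WT libraries. Fewer cells of a type and less RNA per cell cannot be told apart in such bulk libraries, and the part of these markers in the members' differences was not tested.

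The members took a larger share of the reads in elongating than in round libraries, and about the same share in KO-labelled and WT libraries of a stage. In elongating spermatids they held 7.694% and 7.63% of reads in KO-labelled libraries and 7.635% and 7.593% in WT libraries. In round spermatids they held 4.334% and 4.398% in KO-labelled libraries and 4.366% and 4.344% in WT libraries. At each stage the values of KO-labelled and WT libraries overlapped. The 10 most abundant members alone held 3.43% and 3.426% in the elongating KO-labelled libraries and 3.284% and 3.221% in the elongating WT libraries, without overlap.

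Most members were more abundant in elongating than in round WT spermatids. By limma on log2(value + 1), 139 of 197 members were higher and 52 lower in elongating cells at an adjusted p under 0.05, while 6 did not pass. Over all 15685 genes tested, 81.9% were called, 41.7% higher and 40.2% lower. More than 2-fold higher were 121 members and more than 2-fold lower 35, where 30.9% and 25.1% of all genes tested were. The median log2 difference of the members was 1.57, against 0.01 over all genes tested and 0.69 over the other abundant genes. Members were chosen on a mean that includes these libraries, so the excess is partly given by the choice: 60 reached the minimum only through their elongating mean and 20 only through their round mean. With libraries scaled to equal total counts, 97 members were higher and 89 lower, against 3067 and 10799 of the 15685 genes tested. The members' median was then 0.10, against -1.42 over all genes tested. Calls in 1 direction under all 3 scalings tried were 97 higher and 52 lower, where 19.6% and 40.2% of all genes tested were so called. Among the 104 members at or above the minimum in all 4 groups, 78 were higher and 22 lower in elongating cells.

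**Figure D1:**
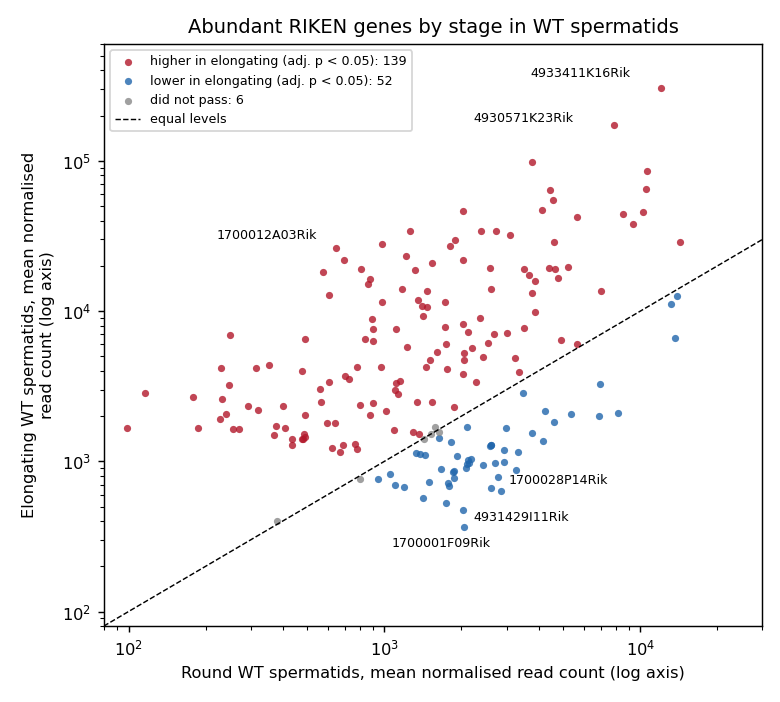
Mean normalised read count of each of the 197 members in round WT (horizontal) and elongating WT (vertical) spermatids, both on log axes, with 2 libraries per mean; colours give the call and the dashed line marks equal levels. Most points lie above the line, with 4933411K16Rik highest at the elongating stage and 1700001F09Rik, 1700028P14Rik and 4931429I11Rik (Jhy) below it.

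The gene with the highest level per length was 4933411K16Rik, an unnamed coding gene of chromosome 19 (chr19:42052248-42053627, GRCm38), at 148166 per kb of exon averaged over the 8 libraries. Its normalised read count was 317243 and 296470 in elongating WT libraries, against 12017 and 11984 in round WT libraries. The stages did not overlap, and the log2 difference was 4.68 (SE 0.03). The next by level per kb were 4930571K23Rik at 49010, the Spem2 gene 4933402P03Rik at 37222, of a family of spermatid maturation proteins, and 1700013G24Rik at 36706. The pseudogene 1700019M22Rik followed at 36438; reads of a pseudogene and its parent may be split by the authors' counting, so its level is uncertain. 1700009N14Rik, 1700029H14Rik and 2610318N02Rik stood at 33989, 26546 and 25820.

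Relative to the round stage the strongest rise was that of 1700012A03Rik, which had 26977 and 25925 in elongating WT libraries, against 621 and 671.9 in round WT libraries (log2 5.35). It was followed by the Nudt16l2 gene 1700080E11Rik (4.98), of the Nudix hydrolase family, 5031439G07Rik (4.97), the lncRNA 1700009J07Rik (4.84) and 1700020A23Rik (4.79). These 5 stood between 27.6 and 40.9 times higher in elongating cells under the deposited scaling. Members that fell were led by 1700001F09Rik, with 333.9 and 399.4 in elongating WT libraries and 2035 and 2045 in round WT libraries (log2 -2.48). The others were 1700028P14Rik (-2.17), the Jhy gene 4931429I11Rik (-2.09), which is needed for motile cilia of the brain ventricles, the Taf7l2 gene 4933416C03Rik (-1.98), related to a subunit of the general transcription factor TFIID, and 1700010I14Rik (-1.97), whose X-box is shown above. For 4933416C03Rik 28.8% of the exons overlap Ptprr on the opposite strand, and the library kit does not mark strand.

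In elongating spermatids most members were called higher in KO-labelled cells under the deposited scaling, but for many of them the direction depended on the scaling between libraries. As deposited, 149 of 197 were higher and 27 lower, and 21 did not pass. Over all genes tested 55% were called, 27.3% higher and 27.7% lower, and the other abundant genes had 1712 higher and 596 lower of 2635. Scaled to equal total counts, 53 of the 197 members were higher and 104 lower, against 1394 and 9854 of the 15685 genes tested. The median log2 difference of the members was 0.42 as deposited, -0.14 with equal totals and -0.08 with library sizes that leave out the 50 most abundant genes. The medians of all genes tested shifted with it, to -0.07, -0.61 and -0.55. Relative to the median gene the members stood higher by 0.50 as deposited and by 0.47 with equal totals, and the other abundant genes by 0.41 and 0.39. The mean that chose the members includes these libraries, and 25 members would miss the minimum without the elongating KO-labelled ones. Calls in 1 direction under all 3 scalings were 53 higher and 27 lower, where 8.89% and 27.7% of all genes tested were so called. Changes below are given as deposited, and a member is said to have risen or fallen only where all 3 scalings called it in that direction.

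**Figure D2:**
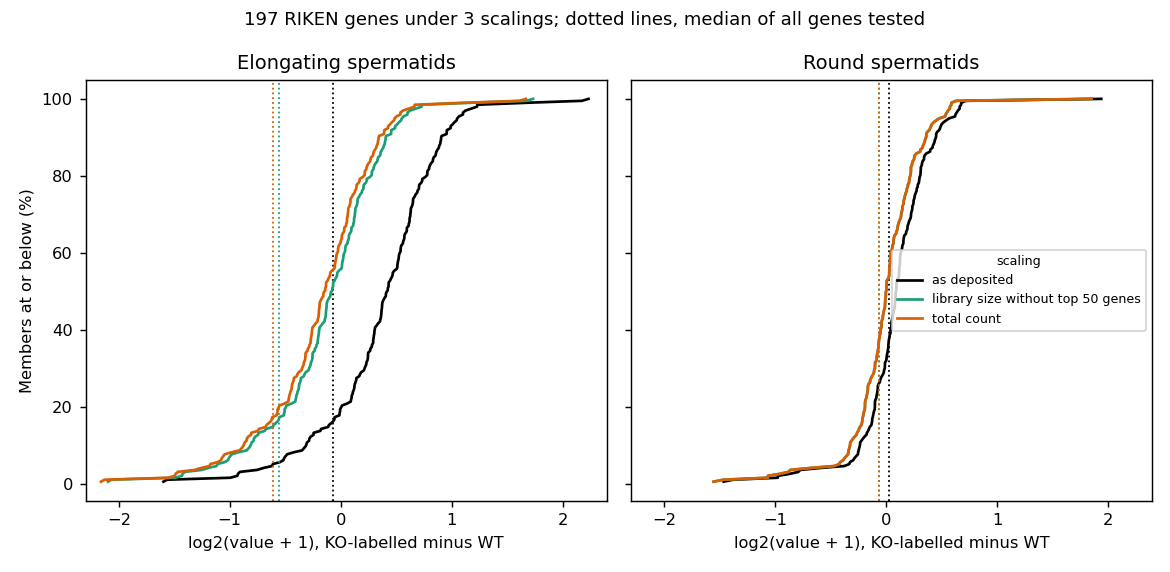
Share of the 197 members at or below each log2(value + 1) difference, KO-labelled minus WT, in elongating (left) and round (right) spermatids, under 3 scalings between libraries; dotted lines mark the median of all genes tested. In elongating cells the members' median lies at 0.42 as deposited and at -0.14 with equal totals, and in round cells at 0.09 and 0.00.

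The largest rises in elongating KO-labelled cells were those of 3 lncRNAs. D130020L05Rik (chr12:101082451-101088927) had 3627 and 3546 in elongating KO-labelled libraries, against 755.4 and 768.6 in elongating WT libraries. Both KO-labelled libraries lay far above both WT libraries, and the log2 difference was 2.23 (SE 0.05, limma adjusted p = 1.4e-13). On the opposite strand 34.7% of its exons overlap Smek1, also named Ppp4r3a, which stood at -0.93 in elongating cells. 4933438K21Rik (chr4:147063366-147068436) had 1932 and 1706 in elongating KO-labelled libraries, against 393.2 and 409.5 in elongating WT libraries. These values did not overlap either, with a log2 difference of 2.17 (SE 0.07, adjusted p = 4e-12). 4933438K21Rik would lie under the minimum without the elongating KO-labelled libraries, so its place among these rises is partly given by the choice of members. 1110020A21Rik (chr17:84917182-84957710), which overlaps the protein phosphatase gene Ppm1b on the opposite strand, had 9656 and 9237 in elongating KO-labelled libraries and 3031 and 2894 in elongating WT libraries. Its log2 difference was 1.67 (SE 0.04, adjusted p = 7.8e-13), against 0.49 for Ppm1b.

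The next rises were about 2-fold. The lncRNA 4930553C11Rik and the coding gene 4921539E11Rik each stood at a log2 difference of 1.23, and the lncRNA 1700052I22Rik at 1.18. Without the elongating KO-labelled libraries 1700052I22Rik had a mean of 903, under the minimum, so it is a member only through the group where it is high. Of 4921539E11Rik, 15104 and 13573 were counted in elongating KO-labelled libraries, against 5938 and 6290 in elongating WT libraries, without overlap. In all, 14 members were higher by over 2-fold as deposited, where 6.08% of all genes tested were, and 2 were lower by over 2-fold, where 6.68% were. Unnamed short proteins were among them. 1110032A03Rik, of 182 residues, had 14130 and 13390 in elongating KO-labelled libraries, against 6341 and 6478 in elongating WT libraries, a log2 difference of 1.10 (SE 0.03, limma adjusted p = 3e-12). In round cells its difference did not pass (0.08, adjusted p = 0.092). Of its exons 20.6% overlap Fdxacb1 on the opposite strand. 4930503B20Rik, of 234 residues, had 40500 and 38241 in elongating KO-labelled libraries, against 19414 and 19288 in elongating WT libraries (1.02), and 4933428G20Rik, of 101 residues, stood at 1.07. The coding gene Samd13 overlaps 51.4% of the exons of 4930503B20Rik on the same strand. On the opposite strand, Gm16325 overlaps 43.8% of the exons of 4930503B20Rik, and Arhgap23 overlaps 18.8% of those of 4933428G20Rik.

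Among the most abundant members the changes were smaller and several depended on the scaling. The member with the highest level per kb, 4933411K16Rik, had 491343 and 482443 in elongating KO-labelled libraries, against 317243 and 296470 in elongating WT libraries. Its log2 difference was 0.67 as deposited (SE 0.03, adjusted p = 1e-10) and 0.10 with equal totals, and it passed in the same direction under all 3 scalings. The next in level, 4930571K23Rik, had 236748 and 232272 in elongating KO-labelled and 171761 and 172629 in elongating WT libraries. Its log2 difference was 0.45 as deposited and -0.12 with equal totals, so no direction is given for it. 1700013G24Rik had 84974 and 87750 in elongating KO-labelled libraries, against 45627 and 46357 in elongating WT libraries, and rose by 0.91. 1700009N14Rik had 99726 and 97194 in elongating KO-labelled libraries, against 63268 and 63853 in elongating WT libraries, and rose by 0.63, as did 1700029H14Rik by 0.64. 2610318N02Rik was 0.57 higher as deposited, without a call under all 3 scalings.

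The 2 members that fell most were lncRNAs. C030037D09Rik (chr11:88718645-88728893) had 3184 and 2954 in elongating KO-labelled libraries, against 9113 and 9457 in elongating WT libraries. The groups were far apart, with a log2 difference of -1.60 (SE 0.05, limma adjusted p = 3.2e-12). Its start lies 132 bases from that of Msi2, an RNA-binding protein gene on the other strand, which was higher by 0.91. 1700003P14Rik (chr13:118555360-118588704) had 1247 and 1139 in elongating KO-labelled and 3492 and 3566 in elongating WT libraries, a log2 difference of -1.57 (SE 0.07, adjusted p = 4.9e-11). The other falls among the largest 6 were those of the Jhy gene (-0.99), the coding gene 1700093K21Rik (-0.93), the lncRNA 4931403G20Rik (-0.93) and 1700028P14Rik (-0.91). Jhy had 219.2 and 258.3 in elongating KO-labelled libraries, against 461.5 and 488.8 in elongating WT libraries, without overlap. 1700010I14Rik also fell, by 0.61 on the log2 scale, with 1363 and 1386 in elongating KO-labelled and 2082 and 2120 in elongating WT libraries. 4931403G20Rik overlaps Map4k5 on the opposite strand over 3.3% of its exons.

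In round spermatids the differences between KO-labelled and WT cells were smaller. As deposited, 85 members were called higher and 33 lower in round KO-labelled cells, and 79 did not pass; over all genes tested 32% were called, 19.4% higher and 12.6% lower. The other abundant genes had 1147 higher and 376 lower of 2635, 43.5% and 14.3%, which is close to the members' 43.1% and 16.8%. Under all 3 scalings 63 members were higher and 33 lower, where 13.8% and 12.6% of all genes tested were. The median log2 difference was 0.09 as deposited, against 0.03 over all genes tested, and 0.00 with equal totals, against -0.06. Of these, 4933438K21Rik alone was higher by over 2-fold and 2 were lower by over 2-fold, where 3.14% and 2.79% of all genes tested were.

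The 3 members past 2-fold in round cells were among the largest changes of elongating cells as well. Of these, 4933438K21Rik would lie under the minimum without the elongating KO-labelled libraries. Its rise at both stages is therefore partly given by the choice of members. 4933438K21Rik had 1527 and 1399 in round KO-labelled libraries, against 390.1 and 371 in round WT libraries. The KO-labelled libraries were again well above the WT libraries, with a log2 difference of 1.94 (SE 0.07, adjusted p = 7.7e-11). Between the stages its WT level differed by 0.08 (SE 0.07, adjusted p = 0.31). The nearest tested genes on the 2 sides lie 516493 and 423981 bases away, and their log2 differences in round cells were -1.67 for 1700095A21Rik and 2.15 for Gm13152. 1700003P14Rik had 267.1 and 259.2 in round KO-labelled and 682.8 and 776 in round WT libraries, a log2 difference of -1.46 (SE 0.07, adjusted p = 1e-09). C030037D09Rik had 553.9 and 538.6 in round KO-labelled and 1471 and 1368 in round WT libraries, a log2 difference of -1.38 (SE 0.05, adjusted p = 8.7e-11). For both genes the KO-labelled and WT libraries were apart at each stage, while the WT level itself was higher in elongating cells.

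The other rises in round KO-labelled cells were more even in size. D130020L05Rik had 1499 and 1609 in round KO-labelled libraries and 922.6 and 963 in round WT libraries (log2 0.72). The coding gene 1700067K01Rik and the lncRNA 1700012H19Rik stood at 0.68 each, and 1700010D01Rik and 1700052I22Rik at 0.66. All of these rose under the 3 scalings and had no overlap between the groups. Without the elongating KO-labelled libraries 1700067K01Rik, 1700012H19Rik and 1700052I22Rik would lie under the minimum. Their places among the rises are therefore partly given by the choice of members. Apart from that of 4933438K21Rik, the rises were smaller in size than the 6 largest falls. 1700001J03Rik, a coding gene, had 1477 and 1502 in round KO-labelled libraries, against 3134 and 2741 in round WT libraries (log2 -0.98, SE 0.06, limma adjusted p = 1.2e-08). The lncRNA 1700120K04Rik had 142.4 and 178 in round KO-labelled and 311.2 and 316.6 in round WT libraries (-0.97). All of its exons lie inside Rnf40 on the opposite strand, so its reads cannot be told apart from those of that gene; Rnf40 was higher by 0.14. The lncRNA 4930412O13Rik, whose cyclic AMP response element is shown above, had 181.2 and 170.7 in round KO-labelled and 322 and 321.4 in round WT libraries (-0.87); it overlaps the gene Gata3 on the opposite strand. 1700008P02Rik, a coding gene, had 195.2 and 212.4 in round KO-labelled and 369.7 and 337.1 in round WT libraries (-0.79).

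**Figure D3:**
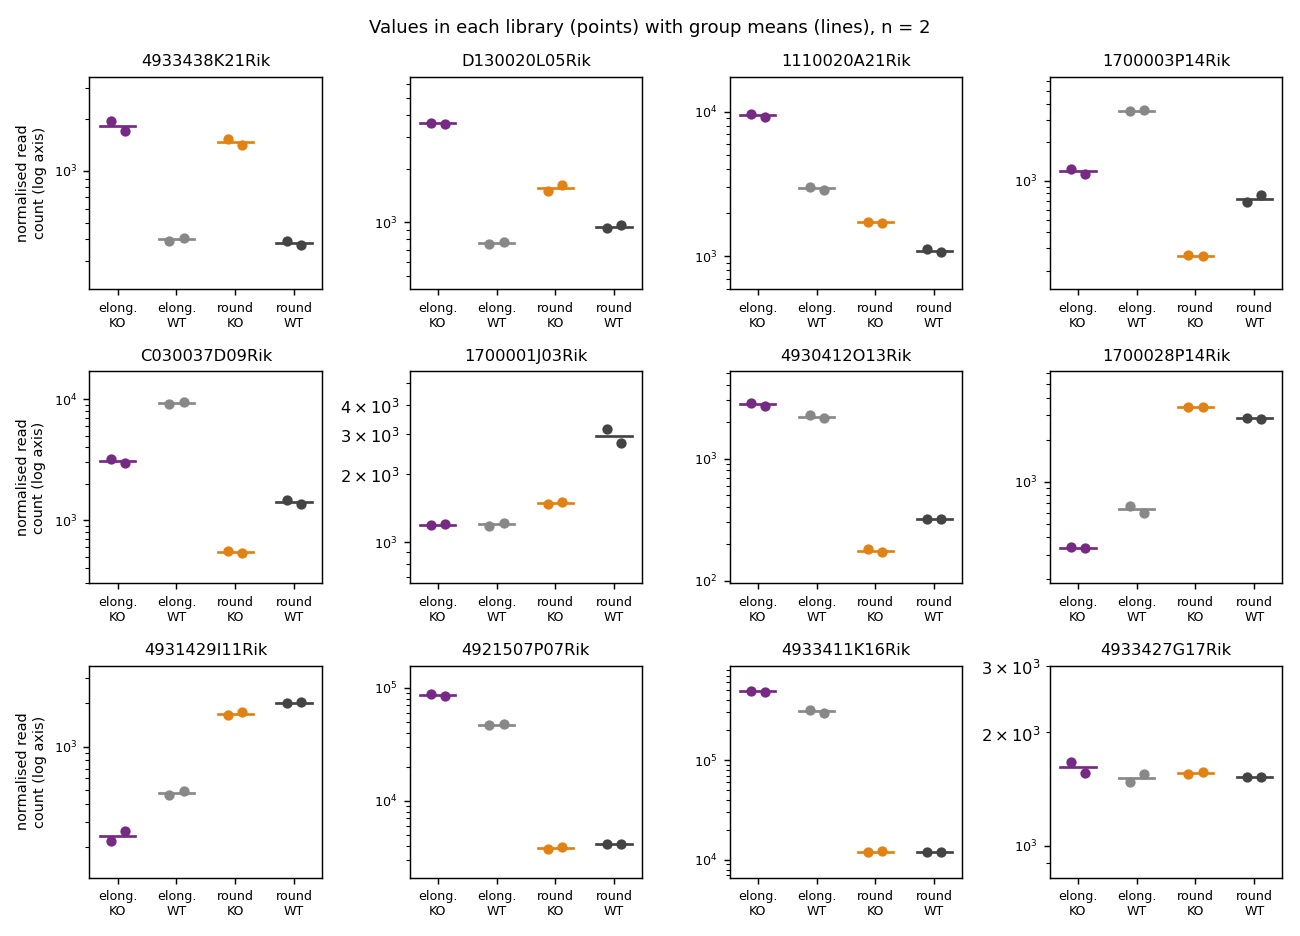
Normalised read count of 12 members in every library (points, log axes) with the mean of each group of 2 (lines), elongating groups at the left and round groups at the right of each panel. 4933438K21Rik is high in the 4 KO-labelled libraries, 1700003P14Rik and C030037D09Rik are low in KO-labelled libraries at each stage, and 4933427G17Rik is level across the 4 groups.

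Across the stages, 71 members were called higher in KO-labelled cells both times as deposited, where 12.2% of all genes tested were, and 10 were lower both times, where 6.36% were. Under all 3 scalings these counts were 27 and 10, and 65 members were called at neither stage. The matching shares of all genes tested were not counted under all 3 scalings, so these counts have no background beside them. The 2 comparisons use different libraries, but share the choice of members and 1 estimate of the spread. Whether libraries of the 2 stages share mice was not tested. The difference between the 2 effects, elongating minus round, was called for 158 members as deposited, 126 upward and 32 downward. Over all genes tested 36.9% were called, 19.3% upward and 17.5% downward. With equal totals the difference was called upward for 45 members and downward for 90, against 858 and 7071 of the 15685 genes tested. Under all 3 scalings it was 45 upward and 32 downward, where 5.46% and 17.5% of all genes tested were. Among the 3 largest lncRNA rises, the difference passed for D130020L05Rik (1.51) and 1110020A21Rik (1.03) and did not pass for 4933438K21Rik (0.24, SE 0.10, limma adjusted p = 0.073). For 1700003P14Rik it was -0.10 (SE 0.09, adjusted p = 0.44), and for C030037D09Rik it was -0.22 (SE 0.07, adjusted p = 0.022).

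**Figure D4:**
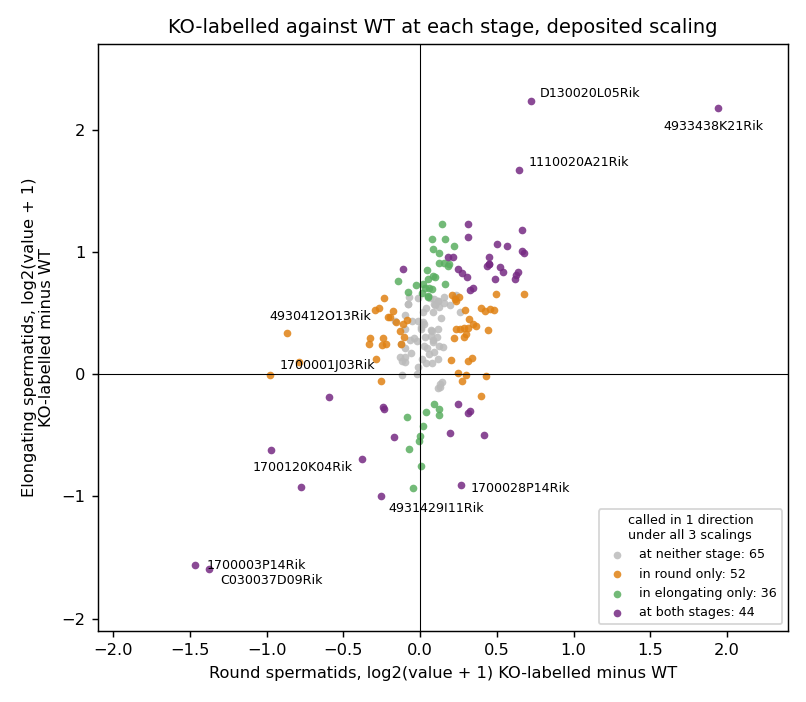
Log2(value + 1) difference, KO-labelled minus WT, of each member in round (horizontal) and elongating (vertical) spermatids under the deposited scaling, with colours for the stages at which all 3 scalings called it. 4933438K21Rik lies at 1.94 and 2.17, C030037D09Rik at -1.38 and -1.60, and 1700028P14Rik at 0.27 and -0.91, on opposite sides of 0.

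A smaller group was called in opposite directions at the 2 stages. As deposited, 7 members were higher in round and lower in elongating KO-labelled cells, where 2.71% of all genes tested were, and 19 were lower in round and higher in elongating cells, where 2.19% were. Under all 3 scalings the counts were 6 and 1, for which the shares of all genes tested were not counted. The largest of the first kind was 1700028P14Rik. It had 339.4 and 335.6 in elongating KO-labelled libraries, against 669.1 and 601.3 in elongating WT libraries, and 3441 and 3434 in round KO-labelled libraries, against 2870 and 2841 in round WT libraries. The groups were apart at each stage in opposite directions, and the difference of the effects was -1.18 (SE 0.08, limma adjusted p = 2.4e-08). The lncRNA 1700067P10Rik (-0.50 in elongating and 0.42 in round cells), the Elapor1 gene 5330417C22Rik (-0.48 and 0.19), a membrane protein of endosomes and lysosomes, and the keratin gene Krt88, 1700011A15Rik (-0.31 and 0.33), behaved alike in sign. All 4 were less abundant in elongating than in round WT cells. The member of the second kind under all 3 scalings was 4921507P07Rik, with 87624 and 84483 in elongating KO-labelled libraries, against 46824 and 47819 in elongating WT libraries. In round cells it had 3757 and 3919 in KO-labelled libraries, against 4136 and 4146 in WT libraries. Its log2 differences were 0.86 and -0.11, and the difference between them was 0.97. The round call was lost without round KO-labelled library 1 (-0.08, limma adjusted p = 0.083) and without either round WT library (-0.11 each, adjusted p = 0.064 and 0.072).

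Genes of cilia and the sperm tail made up 13 members, grouped by their RefSeq names. In elongating KO-labelled cells 8 were higher and 3 lower as deposited, where 75.6% and 13.7% of all members and 27.3% and 27.7% of all genes tested were. In round KO-labelled cells 5 were higher and 2 lower, where 43.1% and 16.8% of all members and 19.4% and 12.6% of all genes tested were. Under all 3 scalings 2 rose and 3 fell in elongating cells, beside 8.89% and 27.7% of all genes tested. In round cells 2 rose and 2 fell so, beside 13.8% and 12.6% of all genes tested. Stpg4 (1700011E24Rik), of the sperm-tail PG-rich repeat family, fell at both stages, with 880.5 and 801.2 in elongating KO-labelled and 1316 and 1407 in elongating WT libraries (log2 -0.70), and a log2 difference of -0.38 in round cells. Its relative Stpg3 (4933433C11Rik) rose in elongating cells, with 14827 and 14578 in KO-labelled and 7755 and 7967 in WT libraries (0.90). Fam166c (1700001C02Rik), a protein of the ciliary microtubule doublets, rose by 0.86 in elongating and by 0.24 in round cells. Cfap206 (1700003M02Rik), which anchors radial spokes of the flagellum, fell in elongating cells (-0.28) and was 0.12 higher in round cells as deposited, a call that was lost without either round WT library (0.13 and 0.12). Of the 13, 4 were higher and 9 lower in elongating than in round WT cells, where 70.6% and 26.4% of all members and 41.7% and 40.2% of all genes tested were.

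Named proteins of testis and sperm made up 15 members, of which 14 were higher and 1 lower in elongating than in round WT cells, beside the 70.6% of all members and 41.7% of all genes tested that were higher. In elongating KO-labelled cells 13 were higher and 1 lower as deposited. The shares were 75.6% and 13.7% over all members and 27.3% and 27.7% over all genes tested. Under all 3 scalings 3 rose and 1 fell, beside 8.89% and 27.7% of all genes tested. In round KO-labelled cells 3 were higher and 2 lower as deposited. Over all members the shares were 43.1% and 16.8%, and over all genes tested 19.4% and 12.6%. Under all 3 scalings 2 fell in round cells, beside 12.6% of all genes tested. Tex50 (4930469G21Rik) had 16696 and 15764 in elongating KO-labelled libraries, against 7314 and 7813 in elongating WT libraries, and rose by 1.10 (SE 0.04, limma adjusted p = 2.2e-11). Spata46 (1700015E13Rik), a protein of the nuclear envelope in the shaping sperm head, was the one that fell (-0.51). Llcfc1 (1700034O15Rik), which sperm need to fuse with the egg, was 0.63 higher as deposited, without a call in that direction under all 3 scalings. In round KO-labelled cells Tex44 (1700019O17Rik) fell by 0.30 on the log2 scale, and Spem2 fell by 0.18; in elongating cells both were higher as deposited, at 0.53 and 0.51, and slightly lower with equal totals, at -0.04 and -0.05.

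Members of the remaining coding groups were few. Both histone variant genes of the spermatid nucleus were higher at each stage as deposited. H2al3 (4930557A04Rik) had 4222 and 3948 in elongating KO-labelled libraries, against 2320 and 2323 in elongating WT libraries, and rose under all 3 scalings in elongating (0.81) and round cells (0.63). H2bl1 (1700024P04Rik) was 0.65 higher in elongating cells, where it did not pass under all 3, and rose by 0.20 in round cells. Of 10 membrane and transport genes 7 were higher and 2 lower in elongating cells, close to the 75.6% and 13.7% of all members, where 27.3% and 27.7% of all genes tested were. In round cells 5 were higher and 5 did not pass as deposited, where 43.1% of all members and 19.4% of all genes tested were higher. Micos13 (2410015M20Rik), which shapes the inner membrane of mitochondria, rose in round cells (0.49), and Cip2a (C330027C09Rik), an inhibitor of protein phosphatase PP2A, rose by 0.83 in elongating and by 0.28 in round cells. Among 6 coiled-coil, IQ-motif and EF-hand proteins, Ccdc187 (4932418E24Rik) had 21742 and 21960 in elongating KO-labelled libraries, against 11723 and 11960 in elongating WT libraries, and rose by 0.88. Iqcm (1700007B14Rik) fell in round cells, with 1302 and 1256 in KO-labelled and 1520 and 1691 in WT libraries (-0.33), and was 0.29 higher in elongating cells as deposited. Of 4 enzyme genes, Acsbg3 (1700061G19Rik), of the acyl-CoA synthetase family, fell at both stages (-0.28 and -0.24), while Nat8f4 (1700019G17Rik), of an acetyltransferase family, did not pass at either (0.11 and -0.12). Rubcn (1700021K19Rik), a brake on autophagy, fell in elongating cells, with 731.2 and 708.8 in KO-labelled and 899.8 and 914.2 in WT libraries (-0.33). Among the 83 coding members with no name or no grouped function, 62 were higher and 11 lower in elongating cells as deposited. These lay near the shares of all members, beside 27.3% and 27.7% of all genes tested. Under all 3 scalings 22 rose and 11 fell, beside 8.89% and 27.7% of all genes tested. In round cells 33 were higher and 13 lower, again near the shares of all members, where 19.4% and 12.6% of all genes tested were. Under all 3 scalings 25 rose and 13 fell there, beside 13.8% and 12.6% of all genes tested.

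Among 44 lncRNA members, leaving out Stk35os1, which is counted with the named genes, 18 rose and 5 fell in elongating KO-labelled cells under all 3 scalings, and 21 rose and 11 fell in round KO-labelled cells. Of all genes tested 8.89% rose and 27.7% fell so in elongating cells, and 13.8% and 12.6% in round cells. As deposited 35 were higher and 5 lower in elongating cells, with a median log2 difference of 0.58, and 23 were higher and 11 lower in round cells, with a median of 0.20. These are 79.5% and 11.4% in elongating cells, close to the 75.6% and 13.7% of all members, and 52.3% and 25% in round cells, against 43.1% and 16.8%. Over all genes tested the shares were 27.3% and 27.7% in elongating and 19.4% and 12.6% in round cells. Of all 1040 lncRNAs tested, 325 were higher and 227 lower in elongating cells and 203 and 153 in round cells, with medians of 0.16 and 0.04, and the 22 other abundant lncRNAs had 20 higher and 2 lower in elongating cells and 15 higher and 1 lower in round cells. The kit does not mark strand, and at least 31 of the 197 members share exon sequence with another gene of the table, at least 15 of them over 10% or more of their exons. These counts matched genes by annotation name, so they miss partners that the table holds under another name, such as Smek1 for D130020L05Rik. Of the 7 pseudogenes 5 were higher and 2 did not pass in elongating cells as deposited, where 75.6% of all members and 27.3% of all genes tested were higher. In round cells 6 were higher and 1 did not pass, where 43.1% of all members and 19.4% of all genes tested were higher. Reads of these pseudogenes may be shared with parent genes.

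**Figure D5:**
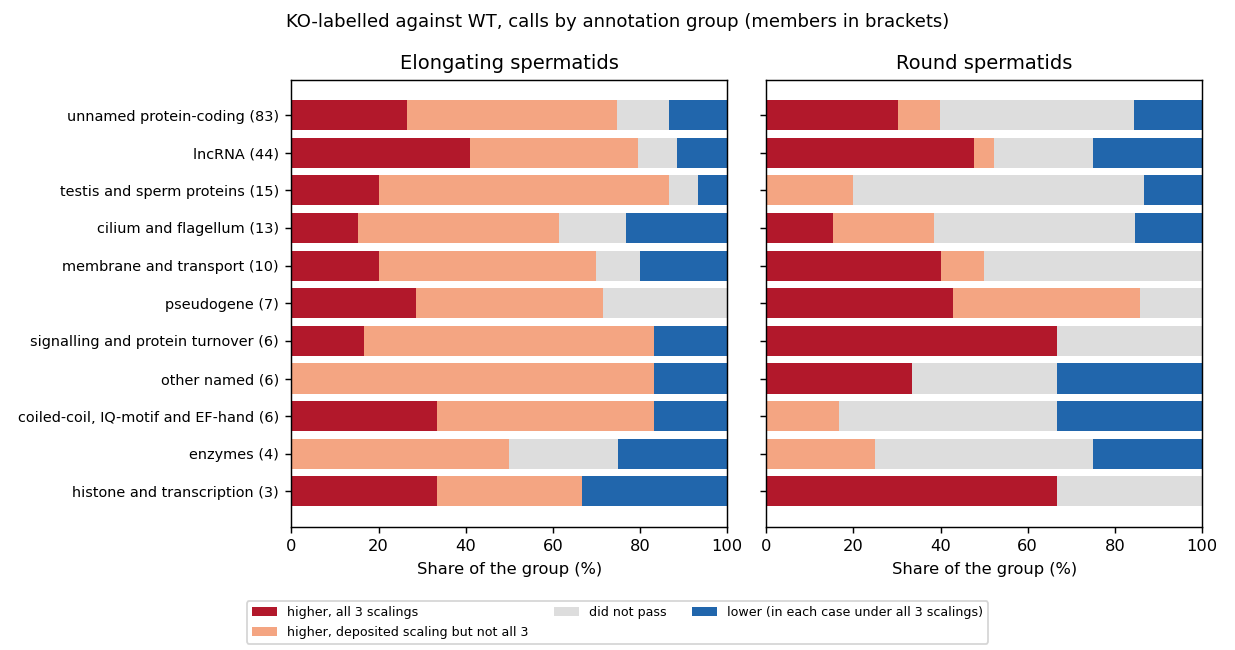
Share of each annotation group of members (number in brackets) called higher or lower in KO-labelled cells, in elongating (left) and round (right) spermatids. Dark red marks higher calls under all 3 scalings and light red higher calls as deposited but not under all 3. The lncRNA bar reaches 35 of 44 members called higher in elongating cells, 18 of them under all 3 scalings, where 75.6% of all members were called higher as deposited.

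The 6 members on the X chromosome, which is silenced at meiosis and whose genes stay largely repressed in spermatids, were higher in KO-labelled cells at both stages as deposited. Under all 3 scalings 5 rose in elongating and 4 in round cells, where 8.89% and 13.8% of all genes tested did. As deposited the median log2 differences were 0.95 and 0.37. The lncRNA 1700010D01Rik had 8657 and 8389 in elongating KO-labelled libraries, against 4291 and 4176 in elongating WT libraries, and 1298 and 1179 in round KO-labelled libraries, against 751.5 and 811.7 in round WT libraries. Its groups were apart at each stage (log2 1.01 and 0.66). The pseudogene 4933400A11Rik stood at 1.12 and 0.31. Among 51 other abundant genes of the X, 48 were higher and 1 lower in elongating cells and 46 higher and 1 lower in round cells. Both sets were chosen on a mean that includes the KO-labelled libraries. Without the elongating ones the member 1700020N15Rik would lie under the minimum, at 804. Over all 634 X-linked genes tested, 164 were higher and 115 lower in elongating cells, 25.9% and 18.1%. Of all genes tested 27.3% and 27.7% were. In round cells 139 X-linked genes were higher and 52 lower, 21.9% and 8.2%, against 19.4% and 12.6% of all genes tested.

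Of the 197 members, 10 were called at neither stage as deposited, where 36.4% of all genes tested were. Of those 7 had no call in the difference either, where 35.3% of all genes tested had none of the 3, and the most abundant were 4930579F01Rik, the Spertl gene 4921530L21Rik, the lncRNA 1700051A21Rik and the Mfsd13b gene 4933427G17Rik, of a transporter family. Mfsd13b had 1672 and 1563 in elongating KO-labelled libraries, against 1482 and 1549 in elongating WT libraries, and 1554 and 1571 in round KO-labelled libraries, against 1522 and 1519 in round WT libraries. Its groups lay close together at each stage without overlap, and its log2 differences were 0.09 (SE 0.05, limma adjusted p = 0.11) and 0.04 (SE 0.05, adjusted p = 0.58). Without elongating KO-labelled library 2 the elongating difference was 0.14 and was called, as was that of 4930579F01Rik at 0.23. With equal totals the difference of Mfsd13b in elongating cells was -0.47, and it was called lower there.

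The minimum of 1000 cut through a continuous range. Just above it were 4933438K21Rik at a mean of 1016, 1700088E04Rik at 1032 and 4933417D19Rik at 1033, and just under it were 1700029J07Rik at 996, 1700040L02Rik at 988 and 9430020K01Rik at 981. 4933438K21Rik, the member with the largest rise in round cells, is 1 of 25 members that would lie under the minimum without the elongating KO-labelled libraries. Others named above include 1700052I22Rik, 1700012H19Rik, 1700067K01Rik and 1700020N15Rik, whose means would be 903, 913, 885 and 804. Of 1700088E04Rik, 42.1% of the exons overlap Micall1 on the opposite strand. 4933417D19Rik, whose promoter stretch is shown above, had 1887 and 1930 in elongating KO-labelled libraries, against 1276 and 1308 in elongating WT libraries, a log2 difference of 0.56 as deposited that was not called under all 3 scalings. At least the minimum was reached by 175 members in the elongating KO-labelled mean, 170 in the elongating WT mean, 141 in the round KO-labelled mean and 135 in the round WT mean.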

How the data were processed

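Poly A RNA libraries were made from DNase-treated TRIzol RNA with TruSeq reagents, which keep no strand information, per the labels' protocols. The tools HTSeq 0.6.0, DESeq 1.16.0, TopHat2 2.0.10 and CASAVA 1.8.2 are listed, per the submitters' processing notes, with the builds mm10 and GRCm38, without order or role. Neither the strand setting nor the gene annotation used for counting is given there. The deposited table holds a normalised signal for each gene in each library; its steps show a read count over a library's size factor. In units of the column's step, 100.0% of values were whole within 1e-06, so reads could be recovered. The lowest total over the 8 libraries was 15 reads, so rarer genes are not in the table.

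Values were tested as log2(value + 1) with limma 3.58.1 in R 4.3.3, using moderated variances with a trend, for the 15685 of 16349 genes that reached 10 in 2 or more libraries. A pseudocount of 1 understates changes of low genes. One model of 4 group means left 4 residual degrees of freedom, and Benjamini-Hochberg adjustment ran over all genes tested. All 197 members passed the filter. A call means an adjusted p under 0.05, two-sided. Scaling was also set to equal total counts and to library sizes without the 50 most abundant genes. Alternatives were edgeR 4.0.16 (quasi-likelihood, TMM) and DESeq2 1.42.0 on recovered reads, a pseudocount of 10, no filter, a fit of 4 libraries, a replicate block and leaving out each library. The test was tried on simulated data before use.

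Named members were taken by rule: the 8 highest per kb of exon, the 6 largest rises and falls without overlap in each comparison of KO-labelled with WT cells, the 5 largest each way between stages, the 4 largest each way among opposite calls, the 4 most abundant without a call and the 3 nearest the minimum on each side. Genes named for a role, an X position, a promoter stretch or an overlap were chosen after their values were seen. Members, annotation groups and lists were chosen with earlier results of these data known. Roles come from RefSeq names, and positions from GENCODE M21 on GRCm38 for 193 members.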

Additional observations from a re-analysis of the deposited data

Results flagged for a closer look

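The difference between KO-labelled and WT cells was itself tested between the stages by an interaction term in limma, and 158 of 197 members passed as deposited, where 36.9% of all genes tested did. Of the members called in opposite directions at the 2 stages, 1700028P14Rik had the lowest difference of effects, elongating minus round, at -1.18 on the log2 scale, followed by 1700067P10Rik at -0.92, 5330417C22Rik (Elapor1) at -0.68 and 1700011A15Rik (Krt88) at -0.63. In the other direction 4930412O13Rik stood at 1.20, 4921507P07Rik at 0.97, 4921517D22Rik at 0.85 and 1700019O17Rik (Tex44) at 0.82. All 8 kept the sign of this difference under the 3 scalings. For 4930412O13Rik and 1700019O17Rik the elongating effect alone changed sign with equal totals, at -0.23 and -0.04, and their round effects were -0.87 and -0.30. 4921517D22Rik, a coding gene, had 2709 and 2439 in elongating KO-labelled libraries, against 1623 and 1723 in elongating WT libraries, and 151.3 and 165.1 in round KO-labelled libraries, against 186.4 and 185.8 in round WT libraries. Groups of 2 libraries are too small for a check of single libraries that stand apart.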

How the results depend on the processing

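The scaling between libraries changed most. With equal total counts, members called in elongating KO-labelled cells were 53 higher and 104 lower, members lower in round KO-labelled cells 55, the difference of the effects 45 upward and 90 downward, and members lower in elongating than round WT cells 89. Of the 15685 genes tested, 1394 and 9854 were so called in elongating cells and 858 and 7071 for the difference. Lower were 3060 of them in round KO-labelled cells and 10799 in elongating WT cells. With library sizes that leave out the 50 most abundant genes the member counts were 67 and 96 in elongating cells. They were then 55 lower in round cells, and 50 and 77 for the difference. A minimum of 500 gives 304 members and one of 2000 gives 116. Several named members changed sign with equal totals, or with the top 50 genes left out. In elongating KO-labelled cells, as log2 differences in that order, these were 4930571K23Rik (-0.12 and -0.055), 4930412O13Rik (-0.23 and -0.16), 4930579F01Rik (-0.44 and -0.38), 1700051A21Rik (-0.51 and -0.44), 4933427G17Rik (-0.47 and -0.41) and 4930563D23Rik (-0.14 and -0.076). With equal totals alone they were 4933402P03Rik (-0.050), 1700019O17Rik (-0.038), 1700080E11Rik (-0.022) and 4933415F23Rik (-0.059). In round KO-labelled cells they were 4933411K16Rik (-0.075 and -0.074), 1700009N14Rik (-0.041 and -0.040), 1700029H14Rik (-0.041 and -0.040), 4930579F01Rik (-0.078 and -0.077), 4933427G17Rik (-0.050 and -0.049), 1700080E11Rik (-0.050 and -0.049) and 4933415F23Rik (-0.0071 and -0.0062). For the difference of the effects they were 4930579F01Rik (-0.36 and -0.30), 4921530L21Rik (-0.36 and -0.30), 1700051A21Rik (-0.40 and -0.34) and 4933427G17Rik (-0.42 and -0.36). These shifts come from the rescaling itself, which moves every gene of a library alike.

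The other alternatives kept each count of members within 1.5 times. edgeR called 145 higher and 29 lower in elongating and 98 and 41 in round KO-labelled cells, and DESeq2 145 and 27, and 84 and 29. Leaving out 1 library gave 142 to 152 higher and 26 to 29 lower in elongating cells, 70 to 90 and 23 to 38 in round cells, 116 to 130 and 26 to 32 for the difference, and 137 to 139 and 52 between stages. When 1 library was left out, small uncalled differences changed sign: 4933411K16Rik in round cells (-0.0086 to 0.038), 4930579F01Rik in round cells (-0.012 to 0.036) and 4921530L21Rik in elongating cells (-0.060 to 0.049). The round effect of 4921507P07Rik, -0.11, lost its call without round KO-labelled library 1 or either round WT library and with the replicate block, and that of 4921517D22Rik, -0.23, lost it in DESeq2 and without the same libraries. 4930579F01Rik and 4933427G17Rik were called higher in elongating cells, at 0.23 and 0.14, without elongating KO-labelled library 2. With the replicate block the calls were 144 higher and 27 lower in elongating cells, 78 and 26 in round cells, 120 and 31 for the difference, and 138 and 52 between stages. Within a stage, deviations of same-numbered KO-labelled and WT libraries correlated at -0.021 in elongating and -0.095 in round cells over 8605 genes. No pairing by number was seen there, but such a correlation cannot exclude a shared preparation. Same-numbered libraries of the 2 stages were not compared. As an alternative chosen after seeing the data, members were chosen on the other stage. By their elongating mean 214 RIKEN genes were taken, with 87 higher and 43 lower in round KO-labelled cells. Of all genes tested 19.4% and 12.6% were so called there as deposited. By their round mean 159 were taken, with 102 higher and 34 lower in elongating KO-labelled cells. There 27.3% and 27.7% of all genes tested were so called as deposited. Counts under the other scalings are not given for these sets. With 2 libraries per group the fits share 1 estimate of the spread, and where a group is left with 1 library it is assumed to vary like the others.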
